A study of Rattus norvegicus with 20 samples.

Results

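Compound 1 (Cmpd 1) is an inhibitor of protein kinase C alpha and beta, and 7 genes from among its largest increases in the fat of obese rats were followed across 20 RNA-seq libraries. The genes were Grhl3, Slc22a3, Bzrap1, Cpxm2, Srms, Prdm8 and B3galt1, 7 of 17653 genes tested and of 32545 genes in the count table. They were chosen by their log2 fold change in read counts, as named genes from among the largest increases in Cmpd 1 rats that met limits on level and overlap, given below with the order. Grhl3, Slc22a3, Bzrap1 and Cpxm2 came from the comparison with Food matched rats, and Srms, Prdm8 and B3galt1 from the comparison with Obese rats. Their changes in those comparisons are what chose them, so they are given as values with no test. So is every other comparison that shares the libraries compared in the choice.

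All rats were male ZSF1 rats fed Purina 5008 chow, enrolled at 21 to 22 weeks of age in a 10-week study, and inguinal white adipose tissue (iWAT, a subcutaneous fat depot) was sequenced from 5 rats per group. Cmpd 1 rats were obese rats whose chow contained the inhibitor. Food matched rats were obese rats without the inhibitor, given the amount of chow that the Cmpd 1 group had eaten in the week before. Obese rats ate untreated chow freely, and Lean rats were lean littermates on the same chow. The obese strain carries mutant alleles of the leptin receptor gene in the whole body, so the 3 obese groups share that defect, and the inhibitor was not limited to fat.

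Protein kinase C enzymes pass on signals from diacylglycerol and calcium to many transcription factors. White fat holds adipocytes beside macrophages, vessels, fibroblasts, mast cells and nerve endings that release norepinephrine, which starts the breakdown of stored fat through beta-adrenergic receptors. The 7 genes come from unrelated families. They encode a pair of transcriptional regulators (Grhl3, Prdm8), a transporter (Slc22a3), a scaffold protein (Bzrap1), a secreted carboxypeptidase-like protein (Cpxm2), a tyrosine kinase (Srms) and a glycosyltransferase (B3galt1).

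RefSeq promoters (build GRCr8) were found for 5 of the 7 genes, and none was at hand for Bzrap1 and Prdm8. The 250 bases before the annotated start are shown for the 3 genes in which a searched motif was found. Capitals mark the motif matches, read 5′ to 3′ on the strand of the gene.
Grhl3 (chr5:153089891-153090140, minus strand): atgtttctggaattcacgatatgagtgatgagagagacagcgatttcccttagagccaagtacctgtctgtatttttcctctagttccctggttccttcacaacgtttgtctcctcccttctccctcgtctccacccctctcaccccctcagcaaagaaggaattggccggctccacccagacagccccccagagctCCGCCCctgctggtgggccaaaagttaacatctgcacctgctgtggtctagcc
Cpxm2 (chr1:196377348-196377597, minus strand): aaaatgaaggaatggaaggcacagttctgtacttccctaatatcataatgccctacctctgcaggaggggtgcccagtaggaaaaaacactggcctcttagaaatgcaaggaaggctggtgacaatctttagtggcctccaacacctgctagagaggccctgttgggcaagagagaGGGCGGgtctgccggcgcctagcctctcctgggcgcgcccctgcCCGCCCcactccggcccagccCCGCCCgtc
Srms (chr3:188702475-188702724, minus strand): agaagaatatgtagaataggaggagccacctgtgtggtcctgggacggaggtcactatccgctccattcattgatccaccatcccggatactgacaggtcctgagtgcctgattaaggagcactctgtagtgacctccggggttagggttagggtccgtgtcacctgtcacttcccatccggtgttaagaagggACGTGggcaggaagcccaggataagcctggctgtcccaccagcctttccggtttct
The GC box GGGCGG was found once in Grhl3, on the opposite strand 53 bases before the start. Cpxm2 held 3 GC boxes, 74 bases before the start on the gene's strand and 30 and 9 bases before it on the opposite strand. Srms held 1 match to ACGTG, the core of the hypoxia response element, 56 bases before the start. Searched on both strands, GGGCGG occurred in 32.39% and ACGTG in 16.95% of 27457 RefSeq promoters of the same length. No match to the AP-1 motif TGANTCA (6.363% of all promoters), the CRE TGACGTCA (1.697%) or the grainyhead motif AACNGGTT (1.65%) was found in these windows of the 5 genes, and the promoters of Slc22a3 and B3galt1 held none of the 5 motifs. None of the 5 motifs contains another, and a match is a description of these letters only.

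Lepr, the leptin receptor gene, averaged 1.43 ± 0.120 CPM (read counts scaled to the TMM-corrected library size) in Cmpd 1, 1.82 ± 0.328 in Food matched, 1.56 ± 0.260 in Obese and 7.66 ± 3.28 in Lean rats (SD, n = 5 each). Reads counted per library were 31716457 to 65759306 in Cmpd 1, 54649679 to 74784655 in Food matched, 56743417 to 70206686 in Obese and 50604956 to 68048796 in Lean rats. Cmpd 1 rat 4 was the shallowest library. Lean rats 1 and 2 stood apart in 6 skeletal muscle markers, whose summed level reached 2801 and 4848 CPM, while no further library exceeded 78.4 CPM. Adipocyte markers (7 genes) summed to 25842 to 35998 CPM over all libraries. Food matched samples carry a deposited phenotype of lean, which their titles contradict, and were treated as obese rats.

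Grhl3 (ENSRNOG00000029427, rn6 chromosome 5, 153893039 to 153924896, minus strand) encodes a grainyhead-like transcription factor known in mice for building the skin barrier and closing the neural tube. It was at 3.12, 9.97, 7.37, 11.4 and 7.87 CPM in Cmpd 1 rats 1 to 5, against 0.957, 1.23, 1.90, 0.684 and 1.98 CPM in Food matched rats. Levels were 1.91, 4.26, 4.40, 2.20 and 2.85 CPM in Obese rats and 6.5, 15.0, 21.2, 24.2 and 15.0 CPM in Lean rats. Every Cmpd 1 rat lay above every Food matched rat, and 4 of 5 lay above every Obese rat, Cmpd 1 rat 1 being the exception. Cmpd 1 and Lean rats overlapped. The log2 fold change was 2.56 (standard error 0.38) for Cmpd 1 versus Food matched and 1.34 (0.36) for Cmpd 1 versus Obese rats, both as descriptions. Obese and Lean rats did not rank Grhl3, but entered its choice through the limit on mean level and the shared fit behind the DEG calls. Between them it fell by 2.39 on the log2 scale (standard error 0.37, adjusted p = 1.8e-05, quasi-likelihood test of edgeR, Benjamini-Hochberg adjusted over all genes), with no overlap between the groups.

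Slc22a3 (ENSRNOG00000022946, rn6 chromosome 1, 48433079 to 48521256, plus strand) encodes organic cation transporter 3, which takes up norepinephrine, serotonin and histamine and in mouse adipocytes clears norepinephrine. Its levels were 1.27, 2.46, 3.19, 7.35 and 1.86 CPM in Cmpd 1 rats 1 to 5, against 0.515, 0.789, 0.542, 0.766 and 0.796 CPM in Food matched rats. Obese rats had 1.61, 1.71, 1.82, 1.41 and 0.632 CPM and Lean rats 55.5, 52.4, 36.2, 44.0 and 44.5 CPM. No Cmpd 1 rat came near a Lean rat, and the Cmpd 1 and Food matched ranges did not overlap. Cmpd 1 rat 4 stood above the other Cmpd 1 rats, and the log2 fold change was 2.17 with it and 1.66 without it against Food matched rats, and 1.11 with it and 0.61 without it against Obese rats. Obese versus Lean rats gave the largest tested difference among the members, a fall of 5.02 on the log2 scale (standard error 0.36, edgeR adjusted p = 1.3e-09), which is a 32.5-fold difference. Without Lean rats 1 and 2 the 4 members tested in Obese versus Lean rats were still called lower.

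Bzrap1 (ENSRNOG00000007957, rn6 chromosome 10, 75055020 to 75076434, plus strand; RefSeq symbol Tspoap1) encodes a scaffold that binds the mitochondrial protein TSPO and, at nerve endings, joins RIM proteins to calcium channels. It was at 5.34, 4.29, 6.91, 7.38 and 4.76 CPM in Cmpd 1 rats 1 to 5, against 1.12, 1.47, 2.37, 1.56 and 3.28 CPM in Food matched rats. Obese rats had 2.38, 4.12, 2.80, 2.73 and 3.00 CPM and Lean rats 9.88, 6.08, 9.12, 8.26 and 9.0 CPM. All Cmpd 1 rats lay above all Food matched and all Obese rats, and 3 of 5 lay below all Lean rats. The log2 fold change was 1.55 (standard error 0.24) for Cmpd 1 versus Food matched and 0.93 (0.23) for Cmpd 1 versus Obese rats, as descriptions. Between Obese and Lean rats Bzrap1 fell by 1.49 (standard error 0.23, edgeR adjusted p = 2.2e-05).

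Cpxm2 (ENSRNOG00000015902, rn6 chromosome 1, 204048785 to 204087001, minus strand) encodes a secreted carboxypeptidase-like protein with a discoidin domain and no known peptidase activity. It was the most abundant of the 7 per length, at 11.6 to 60.3 TPM (reads scaled to gene length and library size) over the 20 libraries. Its levels were 34.9, 54.7, 61.3, 72.3 and 49.3 CPM in Cmpd 1 rats 1 to 5, against 18.2, 17.3, 21.6, 18.6 and 25.5 CPM in Food matched rats. Obese rats had 27.2, 49.1, 41.0, 24.0 and 28.3 CPM and Lean rats 76.2, 54.9, 73.8, 82.5 and 93.1 CPM. Cmpd 1 and Food matched rats did not overlap, whereas Cmpd 1 rat 1 fell within the Obese range. The log2 fold change was 1.42 (standard error 0.20) against Food matched and 0.68 (0.20) against Obese rats, as descriptions. Obese versus Lean rats differed by −1.17 on the log2 scale (standard error 0.20, edgeR adjusted p = 5.4e-05).

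Srms (ENSRNOG00000013003, rn6 chromosome 3, 176709743 to 176716146, minus strand) encodes a tyrosine kinase related to Src that lacks the regulatory tail and the lipid anchor of Src. Counts were low, 24 to 169 reads per library. It was at 2.00, 1.68, 2.56, 2.57 and 2.69 CPM in Cmpd 1 rats 1 to 5, against 0.745, 0.941, 1.26, 0.433 and 0.735 CPM in Obese rats. Food matched rats had 1.40, 1.72, 0.796, 1.91 and 1.76 CPM and Lean rats 2.43, 1.60, 2.14, 2.4 and 2.58 CPM. Cmpd 1 and Obese rats did not overlap, but Cmpd 1 and Food matched rats did, with Cmpd 1 rat 2 inside the Food matched range. The log2 fold change was 1.48 (standard error 0.25) for Cmpd 1 versus Obese and 0.59 (0.25) for Cmpd 1 versus Food matched rats, as descriptions. Food matched versus Lean rats, a comparison that did not rank Srms, gave −0.55 (standard error 0.24, edgeR adjusted p = 0.066), which is not a call. It became one without Lean rat 2 (−0.65, edgeR adjusted p = 0.035) or without Food matched rat 4 (−0.65, edgeR adjusted p = 0.048). Without Food matched rat 3 the difference shrank to −0.39. Over all alternatives, limma-voom and DESeq2 among them, the adjusted p was 0.035 to 0.17.

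Prdm8 (ENSRNOG00000002004, rn6 chromosome 14, 13054771 to 13058172, minus strand) encodes a PR domain zinc finger protein that, in mice, represses genes in neurons and the retina together with Bhlhe22. Cmpd 1 rats 1 to 5 had 10.6, 22, 13.4, 16.3 and 16.6 CPM, against 7.04, 9.12, 8.08, 5.47 and 6.67 CPM in Obese rats. Food matched rats had 5.91, 5.98, 4.90, 7.67 and 9.83 CPM and Lean rats 19.4, 11.6, 17.9, 19.5 and 17.7 CPM. Every Cmpd 1 rat lay above every Obese and every Food matched rat, while Cmpd 1 and Lean rats overlapped. The log2 fold change was 1.12 (standard error 0.20) against Obese and 1.2 (0.20) against Food matched rats, as descriptions. Food matched rats were lower than Lean rats by −1.33 on the log2 scale (standard error 0.20, edgeR adjusted p = 1.1e-05).

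B3galt1 (ENSRNOG00000007625, rn6 chromosome 3, 54253949 to 54267292, plus strand) encodes a galactosyltransferase that adds galactose to N-acetylglucosamine ends of glycans. Its levels were 7.90, 12.7, 13.7, 17.8 and 12.2 CPM in Cmpd 1 rats 1 to 5, against 6.01, 6.05, 5.52, 6.46 and 5.74 CPM in Obese rats. Food matched rats had 6.18, 4.40, 5.69, 5.26 and 7.58 CPM and Lean rats 18.3, 21.5, 30.1, 24.1 and 23.4 CPM. The Cmpd 1 rats sat between the groups, above all Obese and Food matched rats and below all Lean rats. The log2 fold change was 1.10 (standard error 0.17) against Obese and 1.14 (0.17) against Food matched rats, as descriptions. Food matched versus Lean rats gave −2.02 (standard error 0.17, edgeR adjusted p = 5.3e-09).

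**Figure D1:**
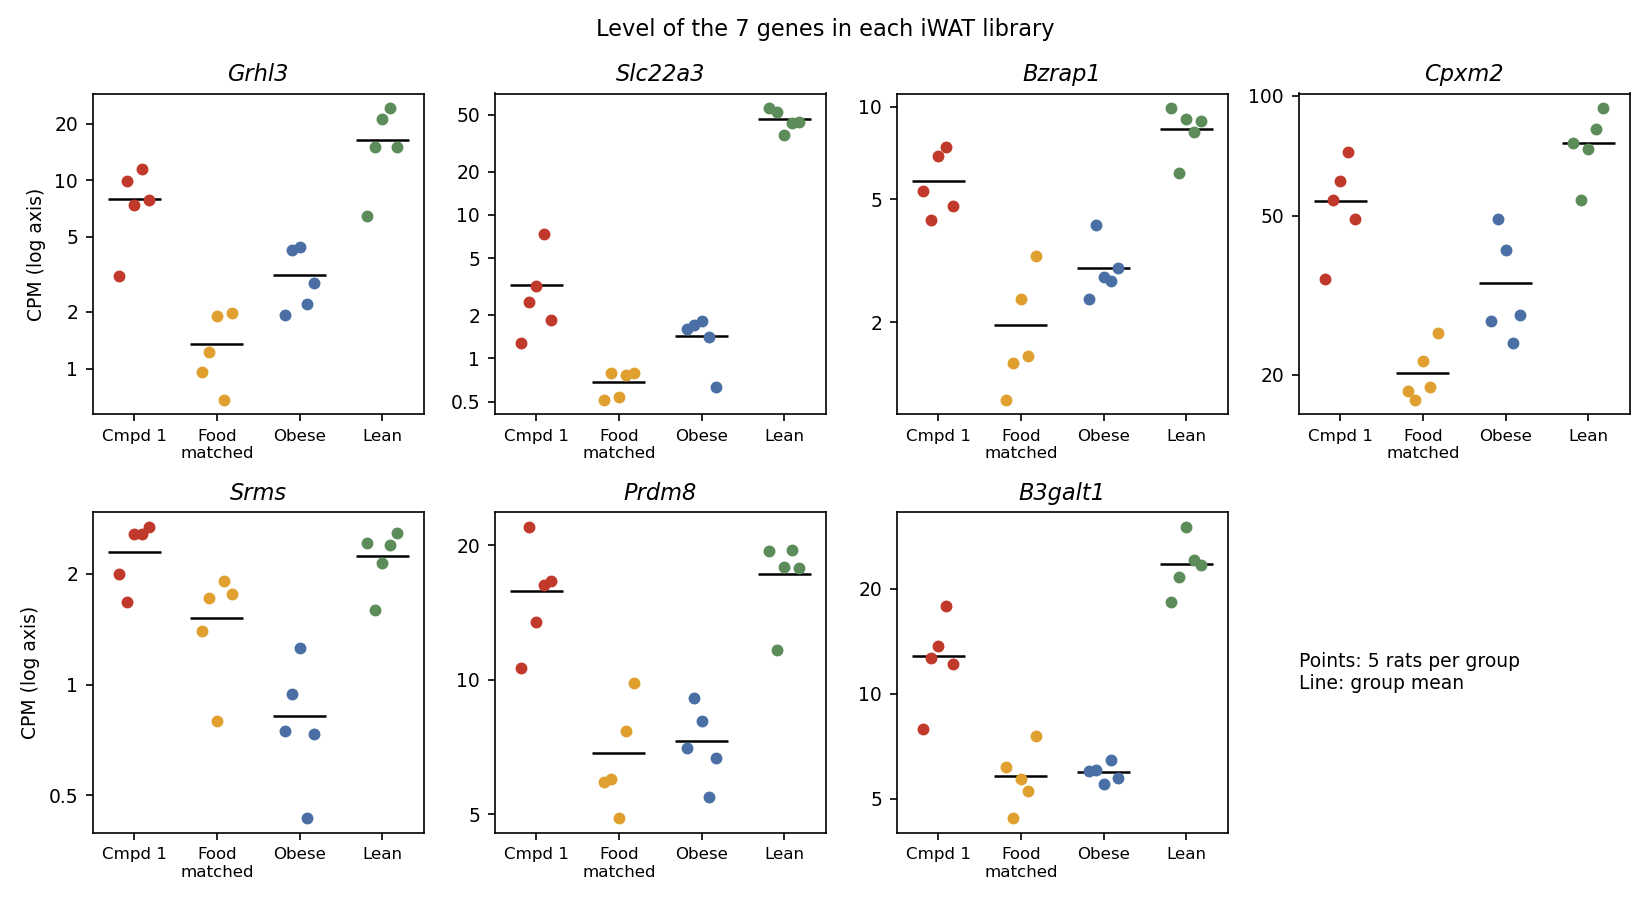
Level of each gene in CPM on a log axis in Cmpd 1, Food matched, Obese and Lean rats, with 1 point per rat (5 per group) and a line at the group mean. Cmpd 1 rats lay above all Food matched rats for 6 genes, Srms being the exception, and Slc22a3 was far lower in every obese group than in Lean rats.

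Across the members, every Cmpd 1 rat lay above every Food matched rat for 6 of 7 genes, as it did for 7.05% of all genes tested. In that comparison 6.19% of all genes were differentially expressed genes (DEGs, fold over 1.5 and adjusted p under 0.05). Every Cmpd 1 rat lay above every Obese rat for 4 of 7 genes (Bzrap1, Srms, Prdm8, B3galt1), as for 5.4% of all genes tested, and 3.53% of all genes were DEGs there. These counts follow from the choice of the genes. In the comparisons that did not rank the genes, 4 of 4 genes were lower DEGs in Obese versus Lean rats, where 11% of all genes tested were lower DEGs, and 22.3% were DEGs in either direction. Libraries of all groups entered the limit on mean level and the 1 fit behind the DEG calls, so these comparisons are not fully apart from the choice. In Food matched versus Lean rats 2 of 3 genes were lower DEGs, where 12.8% of all genes tested were lower DEGs and 25.3% were DEGs in either direction. In bulk tissue fewer cells of a type and less RNA per cell cannot be told apart.

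**Figure D2:**
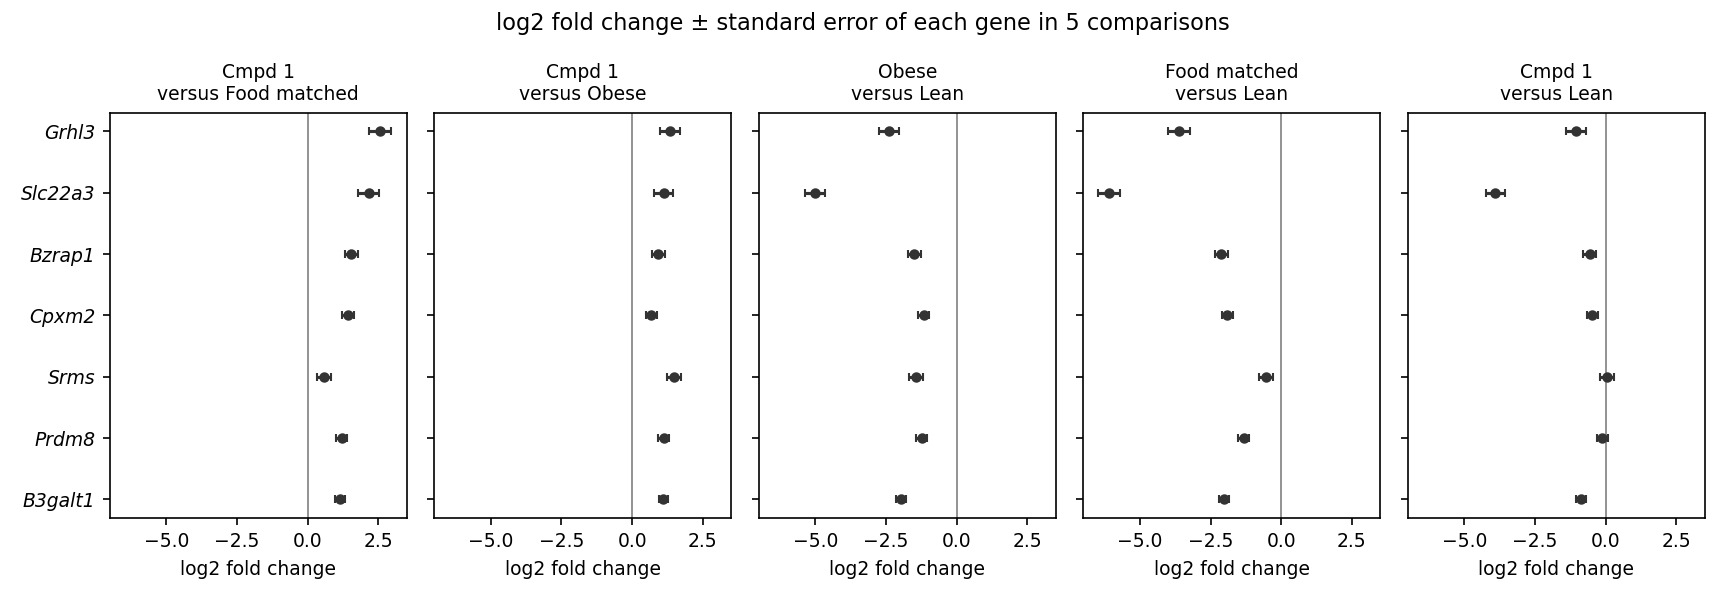
log2 fold change with its standard error (bars) for each gene in 5 comparisons, from 1 edgeR model of 20 libraries. All 7 values are above 0 in both comparisons of Cmpd 1 with untreated obese rats and below 0 in Obese versus Lean and Food matched versus Lean rats. Of all genes tested 51.0% were above 0 against Food matched and 49.9% against Obese rats. In Obese versus Lean rats 48.4% were above 0, and 48.3% in Food matched versus Lean rats. Values with Cmpd 1 rats follow from the choice or share the libraries compared in it, as do some values against Lean rats.

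The level in Cmpd 1 rats can be placed on the log2 scale between the Obese mean (0%) and the Lean mean (100%). Slc22a3 averaged 19.2% ± 18.6 of that distance (SD, n = 5 rats) and 12.1% without Cmpd 1 rat 4. The mean was 54.2% ± 21.6 for B3galt1, 55.6% ± 31.3 for Grhl3, 58.1% ± 32.9 for Cpxm2 and 61.7% ± 22.6 for Bzrap1. Prdm8 averaged 88.4% ± 31.6 and Srms 102.8% ± 19.9. For Srms, Food matched rats without the inhibitor were themselves 0.89 above Obese rats on the log2 scale, as a description. Measured from the Food matched mean instead, the position was 32.3% ± 15.6 for Slc22a3, 55.4% ± 21.02 for B3galt1, 70.9% ± 20.5 for Grhl3, 73.6% ± 20.7 for Cpxm2 and 73.7% ± 15.5 for Bzrap1, with Prdm8 at 89.4% ± 29.0 and Srms at 106.9% ± 49.6. On the scale from the Obese mean, only the step between Slc22a3 and B3galt1 was larger than the SD of both neighbours, and these steps were not tested. The same rats were extreme for several genes. Cmpd 1 rat 1 was the lowest of its group for 5 genes, and rat 4, the shallowest library, was the highest for 5.

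**Figure D3:**
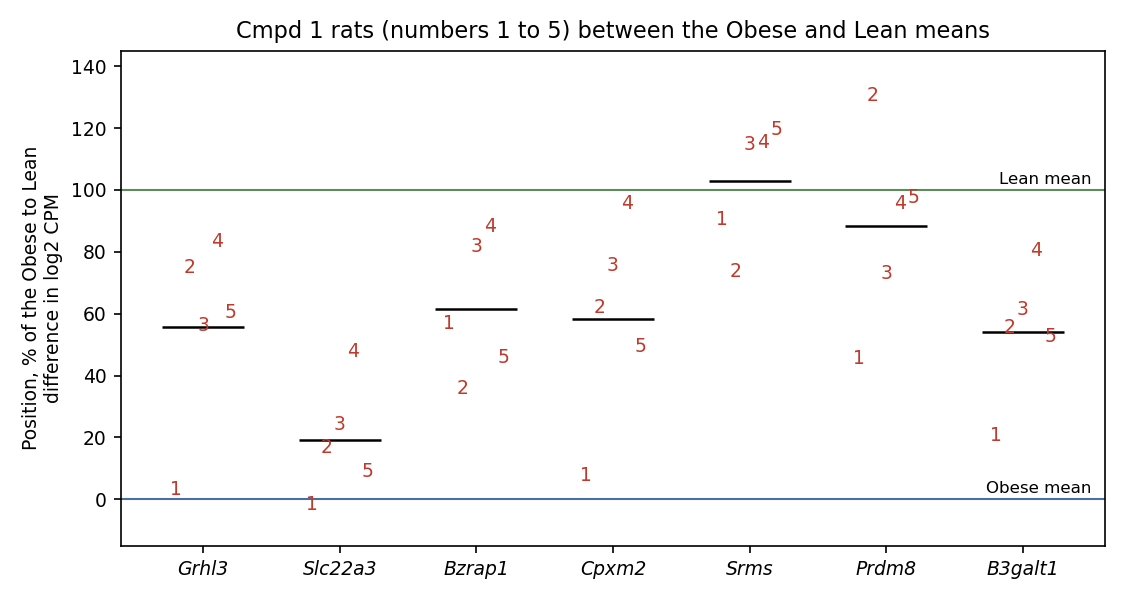
Position of each Cmpd 1 rat (numbers 1 to 5) as a percent of the Obese to Lean difference in mean log2 CPM, with a line at the mean of the 5 rats. Slc22a3 stayed nearest to the Obese mean at 19.2%, and Srms reached the Lean mean at 102.8%. The genes were chosen on the Cmpd 1 libraries, so these positions follow in part from the choice.

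Compared with Lean rats, Cmpd 1 rats had log2 fold changes of 0.04 for Srms, −0.13 for Prdm8, −0.48 for Cpxm2, −0.57 for Bzrap1, −0.88 for B3galt1, −1.05 for Grhl3 and −3.91 for Slc22a3, as descriptions. Every Cmpd 1 rat lay below every Lean rat for 2 of 7 genes, Slc22a3 and B3galt1, as for 11.2% of all genes tested. Of all genes tested 16.6% were DEGs in Cmpd 1 versus Lean rats, 7.47% higher and 9.11% lower. The members were chosen on the Cmpd 1 libraries and are given there as values only. Food matched and Obese rats overlapped for all 7 genes, where 2.04% of all genes tested did not overlap, with log2 fold changes of −1.22 (Grhl3) to 0.89 (Srms). Between those groups edgeR called 0% of genes tested (0 of 17653), with 1887 at an unadjusted p under 0.05, limma-voom 10 genes and DESeq2 69.

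The choice was limited to higher DEGs that had a symbol, averaged 1 CPM or more over the 20 libraries and had every Cmpd 1 rat above every rat of the other group. For Cmpd 1 versus Food matched rats 126 of the 272 higher DEGs met these limits, and the 6 largest increases among those were Grhl3, Slc22a3, Cish, Bzrap1, Cpxm2 and Egln3. Cish and Egln3 are not among the 7 genes. The last of the 6, Egln3, had a log2 fold change of 1.30. By log2 fold change over all 17653 genes tested, without these limits, Grhl3 ranked 21, Slc22a3 53, Bzrap1 135 and Cpxm2 157. For Cmpd 1 versus Obese rats 45 of 129 higher DEGs met the limits, and the 3 largest ended at B3galt1 with 1.10, and the next gene, Hrh3, had 1.05. Over all genes tested Srms ranked 135, Prdm8 277 and B3galt1 292 in that comparison.

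Over the libraries the members varied together, which follows in part from the choice, because all were picked as high in the same Cmpd 1 libraries. Pearson r of log2 CPM between members ran from 0.49 to 0.94 over 20 libraries (21 pairs, median 0.85), and Srms was the member least like the others. With the group means removed r was 0.01 to 0.66 (median 0.38). The genes most like each member over the 20 libraries, out of 12028 searched, were Chrdl1 (r = 0.96), Efna5 and C6 for Grhl3, and Sod3 (0.98), Adhfe1 and Aox1 for Slc22a3. Gpc2 (0.97), Aldh3a2 and Adam33 were most like Bzrap1, and Jmjd8 (0.96), Chrdl1 and C6 most like Cpxm2. For Srms they were Slc52a3 (0.89), Gba2 and Mib2, for Prdm8 Efnb1 (0.94), Palm and Cog4, and for B3galt1 Slc43a1 (0.97), Gnai1 and Prkd1. These points share libraries, groups and depth, and r is given as a description.

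Markers of other cell types moved with the groups. Macrophage markers (7 genes, all detected) summed to 2475 to 3456 CPM in Cmpd 1, 3456 to 6311 in Food matched, 3126 to 4509 in Obese and 1625 to 1980 CPM in Lean rats. Of the 7 markers, 3 were lower DEGs in Cmpd 1 versus Food matched rats and 1 in Cmpd 1 versus Obese rats, and in Obese versus Lean rats 3 were higher and 1 lower. The members' r with this sum was −0.54 to −0.92 over 20 libraries and −0.03 to −0.52 with group means removed, and the part of macrophage content in the members' values was not tested. Epithelial markers (12 genes), given because of the known role of Grhl3, summed to 48.2 to 63.1 CPM in Cmpd 1, 58.5 to 111 in Food matched, 65.6 to 99.3 in Obese and 23.4 to 220 CPM in Lean rats, with Lean rat 2 the highest. Of 9 tested, edgeR called 0 in Cmpd 1 versus Food matched and 0 in Cmpd 1 versus Obese rats (0 at an unadjusted p under 0.05 in each, 0 by limma-voom and 0 by DESeq2). In Obese versus Lean rats, where Grhl3 was tested, 1 of the 9 was higher and 5 were lower. Of the single markers, Dsp had the highest mean in each obese group, at 33.2 CPM in Cmpd 1, 51.9 in Food matched and 57.2 in Obese rats. It averaged 5.66 CPM in Lean rats, where Krt8 was highest at 27.7 CPM. Dsp, Cldn4 and Perp averaged more in each obese group than in Lean rats, and the other markers less, so the sum mixes opposite changes. Krt14 was at most 0.382 CPM in any library. Krt5 was at 0 CPM in every Cmpd 1 and Food matched library but up to 12.5 CPM in a Lean library. Krt8, Perp, Dsp, Cldn4, Krt19, Cdh1, Cldn7 and Krt18 were detected in every library. With the epithelial sum the members' r was −0.60 to −0.33 over 20 libraries, and −0.38 for Grhl3. With group means removed it was −0.55 to 0.007, and −0.14 for Grhl3. The part of epithelial content in the level of Grhl3 was not tested.

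Median sums of lymph node, endothelial, skeletal muscle and adipocyte markers were highest in Lean rats, with ranges that overlapped those of obese rats. For 3 other lists every Lean rat lay above every obese rat. Liver or intestine markers (5 genes) summed to 14.7 to 24.2 CPM in Cmpd 1, 6.58 to 13.96 in Food matched, 14.9 to 18.2 in Obese and 91.6 to 242 CPM in Lean rats, and of 4 tested 1 was higher in Cmpd 1 versus Food matched and 4 were lower in Obese versus Lean rats. Mast cell markers (5 genes) summed to 57.3 to 94.5 CPM in Cmpd 1, 41.3 to 86.3 in Food matched, 63.6 to 94.1 in Obese and 146 to 197 CPM in Lean rats, with 4 of 5 lower in Obese versus Lean rats. Schwann cell and nerve markers (7 genes) summed to 1818 to 2012.5 CPM in Cmpd 1, 1488 to 1947 in Food matched, 1816 to 2200 in Obese and 2444 to 2809 CPM in Lean rats, with 3 of 7 lower in Obese versus Lean rats. Over 20 libraries the members' r was 0.42 to 0.95 with the liver or intestine sum, 0.41 to 0.92 with the mast cell sum and 0.22 to 0.87 with the Schwann cell sum. With group means removed these were 0.03 to 0.53, 0.12 to 0.61 and −0.06 to 0.56. Over the 20 libraries r was 0.33 to 0.81 with lymph node, 0.40 to 0.63 with endothelial and −0.74 to −0.56 with fibroblast sums. With group means removed r was −0.19 to 0.26, −0.25 to 0.72 and −0.09 to 0.26, the 0.72 being Srms with the endothelial sum. The part of these cell types in the members' values was not tested.

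**Figure D4:**
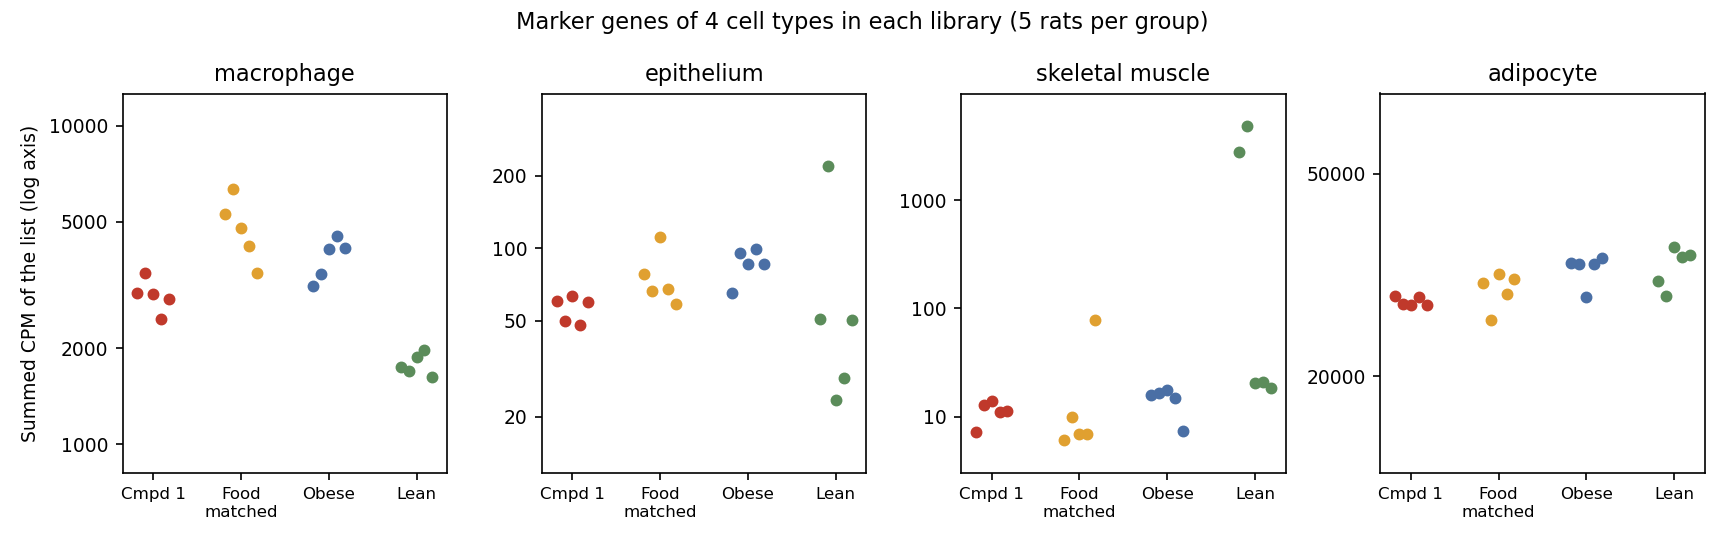
Summed CPM of marker genes of macrophages, epithelium, skeletal muscle and adipocytes on a log axis, with 1 point per rat (5 per group). Macrophage sums lay at 2475 to 3456 CPM in Cmpd 1 rats against 3456 to 6311 CPM in Food matched rats, and muscle markers were high in 2 Lean libraries.

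Relatives of the 7 genes were listed by family or pathway, 106 in all, of which 93 were tested. In Cmpd 1 versus Food matched rats 3 were higher and 5 lower DEGs (3.23% and 5.38%), where 1.54% and 4.65% of all genes were. In Cmpd 1 versus Obese rats 1 was higher and 3 lower, where 0.731% and 2.8% of all genes were. The median log2 fold change of the relatives was −0.01 and −0.08 in these comparisons, against 0.0058 and −0.00063 over all genes. In Obese versus Lean rats 14 were higher and 22 lower (15.1% and 23.7%), where 11.3% and 11% of all genes were.

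Catecholamine handling (17 genes tested), the pathway of Slc22a3, held 2 higher and 2 lower DEGs in Cmpd 1 versus Food matched rats. Adrb1 and Adrb3 had been singled out on these libraries before, so their count is not independent evidence. Adrb1, the beta-1 adrenergic receptor, averaged 6.20 ± 1.79 CPM in Cmpd 1 and 3.06 ± 0.705 CPM in Food matched rats (SD, n = 5 each), a log2 fold change of 1.02 (edgeR adjusted p = 0.0014). Adrb3, the main lipolytic receptor of rat fat, averaged 60.3 ± 10.2 CPM in Cmpd 1 and 39.4 ± 9.81 CPM in Food matched rats, a log2 fold change of 0.61 (edgeR adjusted p = 0.0089) that dropped under the fold threshold without Food matched rat 1, Food matched rat 3 or Cmpd 1 rat 2 (0.51 to 0.54). Slc47a1, an exporter of organic cations, went the other way from Slc22a3, at 4.44 ± 1.08 CPM in Cmpd 1 and 11.9 ± 1.48 CPM in Food matched rats (log2 fold change −1.41, edgeR adjusted p = 4.1e-05). The other lower gene was the dopamine transporter gene Slc6a3, named after its values were seen and at most 0.168 CPM in any library of either group. Against Obese rats, Cmpd 1 rats had lower Slc47a1 (−1.17, edgeR adjusted p = 0.00059) and lower Slc22a2, organic cation transporter 2 (−1.06, edgeR adjusted p = 0.016), and higher Adrb1 (0.77, edgeR adjusted p = 0.017), the last no longer called without Cmpd 1 rat 4 (0.61, edgeR adjusted p = 0.066). In Obese versus Lean rats 3 were higher and 7 lower, among them Slc47a1 (1.81, edgeR adjusted p = 4.8e-08), which was higher, and Adrb3 (−1.44, edgeR adjusted p = 3.7e-07), which was lower.

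Galactosyltransferases related to B3galt1 (17 tested) held 1 higher and 1 lower DEG in Cmpd 1 versus Food matched rats. B4galt6, a lactosylceramide synthase, averaged 35.1 ± 5.93 CPM in Cmpd 1 and 67.7 ± 12.1 CPM in Food matched rats (log2 fold change −0.94, edgeR adjusted p = 0.00027). B3gnt3, at most 0.650 CPM in these groups, was higher (1.23, edgeR adjusted p = 0.024) but not without Food matched rat 2, Cmpd 1 rat 1 or Cmpd 1 rat 5 (edgeR adjusted p = 0.066 to 0.084). B4galt6 was also lower in Cmpd 1 versus Obese rats (−0.63, edgeR adjusted p = 0.0093), short of the fold threshold without Obese rat 4 (−0.56), without Cmpd 1 rat 4 (−0.55) or with library size alone (−0.58). In Obese versus Lean rats B4galt6 (1.92, edgeR adjusted p = 4.8e-09) and B3galnt1 (1.22, edgeR adjusted p = 2.9e-08) were higher. B3galt2, with means of 0.133 CPM in Obese and 0.362 CPM in Lean rats, was lower (−1.44, edgeR adjusted p = 0.024), but not without Lean rat 1 or Obese rat 1, 3 or 4 (edgeR adjusted p = 0.051 to 0.064).

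Kinases related to Srms (13 tested, with their regulators) held 2 lower DEGs in Cmpd 1 versus Food matched rats, among them Matk, which inhibits Src kinases (−0.61, edgeR adjusted p = 0.017). Without Food matched rat 1 or 2 or Cmpd 1 rat 3 or 4, Matk was at −0.53 to −0.58, short of the fold threshold. Against Obese rats edgeR called 0 of 13 (6 at an unadjusted p under 0.05, 0 by limma-voom and 0 by DESeq2). Of all 17653 genes tested, 4959 had an unadjusted p under 0.05 there. In Obese versus Lean rats 6 were higher and 0 lower, among them Fgr (1.26, edgeR adjusted p = 2e-09) and Matk (2.4, edgeR adjusted p = 3.9e-09). Srms itself was −1.44 in that comparison, a value that shares the Obese libraries used in its choice.

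The other 4 families held 0 DEGs in either comparison with Cmpd 1 by edgeR. In Cmpd 1 versus Food matched rats 2 of 10 grainyhead and epithelial genes, 2 of 12 partners of Bzrap1, 4 of 12 carboxypeptidases and 5 of 12 PRDM genes and partners had an unadjusted p under 0.05. So had 5968 of all 17653 genes tested, so these counts are no result about the families. In Cmpd 1 versus Obese rats each of the 4 families had 2 such genes, where 4959 of all 17653 genes tested were such genes. limma-voom called 0 in both comparisons, and DESeq2 called 1 grainyhead or epithelial gene in Cmpd 1 versus Food matched rats. In Obese versus Lean rats the carboxypeptidases Cpa1 (−4.06, edgeR adjusted p = 5e-09), Cpa4 (−3.18, edgeR adjusted p = 1.1e-06) and Cpq (−0.77, edgeR adjusted p = 6.6e-08) were lower, as was Tspo, the partner that Bzrap1 binds (−0.81, edgeR adjusted p = 6.9e-09). Cpa4 averaged 0.193 CPM in Obese and 1.78 CPM in Lean rats. Among PRDM genes Prdm1 was higher (1.15, edgeR adjusted p = 3.5e-07) and Prdm16, a regulator of beige fat, lower (−1.10, edgeR adjusted p = 0.00055), with Prdm6 also lower (−2.87, edgeR adjusted p = 0.0019). Prdm6 averaged 0.0954 CPM in Obese and 0.704 CPM in Lean rats. Tfcp2l1 was lower (−0.87, edgeR adjusted p = 0.0041). Klf5 (−1.93, edgeR adjusted p = 0.0015), Tp63 (−4.69, edgeR adjusted p = 0.0062) and Rims1 (−5.05, edgeR adjusted p = 0.0022) were lower too, but without Lean rats 1 and 2 Klf5 was at −0.99 (edgeR adjusted p = 0.051), Tp63 at −0.06 (edgeR adjusted p = 0.98) and Rims1 at −1.80 (edgeR adjusted p = 0.18). Tp63 and Rims1 also lost the call without Lean rat 2 alone (edgeR adjusted p = 0.35 and 0.080). Rimbp3 was higher (0.77, edgeR adjusted p = 0.026), but not without Lean rat 2 or 4 or Obese rat 3 or 5 (edgeR adjusted p = 0.060 to 0.092).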

How the data were processed

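Stranded mRNA libraries were made from iWAT of 20 rats. The deposited values are raw counts per Ensembl gene, without normalization, which the authors made from uniquely mapped reads with STAR and featureCounts. The study's methods name rn6, whereas the submitters' processing notes list STAR 2.5.2, Subread 1.5.1 and GRCh38, a human build. Whether counting used strand is not given in the sources used here. Grhl3 is the 1 member whose span overlaps another annotated gene, SNORND104 on the same strand. Over all libraries SNORND104 had 1 read and Grhl3 8302.

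A gene lacking reads in at least 10 of the 20 libraries was dropped (14892 of 32545, 10187 of them with no read at all). edgeR 4.0.16 under R 4.3.3 fitted the 4 groups in 1 quasi-likelihood model with TMM normalization and 16 residual degrees of freedom. p-values were adjusted by Benjamini-Hochberg over 17653 genes, and a DEG had a fold over 1.5 and an adjusted p under 0.05. CPM used TMM-scaled library sizes, log2 CPM a prior count of 2, and TPM the gene lengths of the table. No library pair was identical.

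The members, lists and tests were chosen with earlier results of these data known. Named genes were the members, for each the 3 genes of highest r over the libraries (mean of at least 1 CPM), up to 3 DEGs per family and comparison by adjusted p, and the genes at the bounds of the choice. Some genes that this rule names are not reported here, and counts over families include them. Alternatives were limma-voom (limma 3.58.1), DESeq2 1.42.0, other scalings, no filter, no fold threshold, only the groups compared, a replicate block, and leaving out single libraries or Lean rats 1 and 2. The model was first tested on simulated data.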

Additional observations from a re-analysis of the deposited data

Results flagged for a closer look

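Prdm8 in Lean rat 2, at 11.6 CPM, lay far below the other Lean rats, the nearest of which was at 17.7 CPM. The gap was 0.78 of the range of the 5 Lean rats, above the critical value of 0.71. It was the only sample so far from its group among 28 combinations of gene and group, of which chance alone flags about 1 in 20. Lean rat 2 was also the lowest Lean rat for Bzrap1, Cpxm2 and Srms, and it had the highest skeletal muscle and epithelial marker sums (4848 and 220 CPM). The part of those transcripts in its values was not tested.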

How the results depend on the processing

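The members' calls in the comparisons that did not rank them kept their direction and side of the threshold in 194 of 196 values. The other 2 were the 2 calls of Srms given above. The 588 values of the described comparisons moved by less than the spread (SD) between rats. Leaving out 1 of 5 rats can hardly move a group mean by that much, so this limit says little about single rats. Within it, Slc22a3 in Cmpd 1 versus Obese rats went from 1.11 to 0.61 without Cmpd 1 rat 4. Among relatives, the 8 DEGs in Cmpd 1 versus Food matched rats became 22 with no fold threshold and 5 to 9 on leaving out single libraries (5 without Food matched rat 1 or 2 or Cmpd 1 rat 3 or 4), and the 4 in Cmpd 1 versus Obese rats became 15 with no fold threshold. For the named relatives 857 of 895 values were on the same side of the threshold, 38 lost the call and 0 reversed. DESeq2 gave no adjusted p for Rims1 in Obese versus Lean rats, and that value was left out. The replicate block left the members' 4 and 2 calls and the relatives' 8, 4 and 36 calls as counted. The numbers did not pair the rats (30 pairs, r −0.10 to 0.15, 1 over 0.1), and Tp63 lost its call with the block (−3.19, edgeR adjusted p = 0.083). Low counts limit Srms, with 24 to 169 reads per library, and Slc22a3 in the obese groups, with 28 to 240.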
